A study of Rattus norvegicus with 6 samples.

Results

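The miR-219, miR-338, miR-204 and miR-211 families are miRNAs known from myelinating glia and from cells of neural crest origin. They were followed in the rat trigeminal ganglion after nerve injury. Members were all rows of the deposited count table whose name has the stem miR-219a, miR-219b, miR-338, miR-3065, miR-204 or miR-211. There were 11 such rows among 650 mature miRNAs. Members were chosen by name.

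Both groups were Sprague-Dawley rats aged 8 to 10 weeks, and the ganglion on the operated side was taken 14 days after surgery. In the CCI-ION group (3 libraries) loose silk ligatures were tied around the left infraorbital nerve, a model of trigeminal neuropathic pain by chronic constriction injury. In the sham group (3 libraries) the nerve was exposed in the same way and not tied. The infraorbital nerve is a branch of the maxillary division, and the ganglion also serves branches that were not tied. The labels do not say that each library came from a separate rat, so p-values reflect only how these libraries varied, which may be partly technical. Total miRNA counts ran from 6420434 to 12560545 per library.

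A miRNA is cut from a hairpin precursor as a 5p and a 3p strand, and the loaded strand pairs with target mRNAs mainly through its seed, bases 2 to 8. miR-219 and miR-338 are known from oligodendrocytes, where they repress genes that hold precursor cells undifferentiated, and miR-338 lies within the gene Aatk. miR-204 and miR-211 lie within the ion channel genes Trpm3 and Trpm1, and miR-211 is best known from melanocytes. These libraries came from whole ganglia, so the cells that gave the reads were not measured, and fewer cells of a type cannot be told apart from less of a miRNA per cell.

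The mature sequences are shown first because several members share a seed or lie opposite each other on the same stretch of genome. All 11 deposited sequences were identical to the RefSeq entry of the same name (build GRCr8), and they are written 5′ to 3′ with the seed in capitals.
rno-miR-219a-5p: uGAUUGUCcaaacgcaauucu
rno-miR-219a-1-3p: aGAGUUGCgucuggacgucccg
rno-miR-219a-2-3p: aGAAUUGUggcuggacaucugu
rno-miR-219b: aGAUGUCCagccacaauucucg
rno-miR-338-5p: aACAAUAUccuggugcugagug
rno-miR-338-3p: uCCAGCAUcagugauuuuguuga
rno-miR-3065-5p: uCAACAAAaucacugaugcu
rno-miR-3065-3p: uCAGCACCaggauauuguugggga
rno-miR-204-5p: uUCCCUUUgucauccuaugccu
rno-miR-204-3p: gCUGGGAAggcaaagggacguu
rno-miR-211-5p: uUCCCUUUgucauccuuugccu

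The 11 sequences held 10 seeds, and miR-204-5p and miR-211-5p were the pair that shared one. They differed by A17U (the base of miR-204-5p, the position counted from 1 at the 5′ end, then the base of miR-211-5p), so reads could be split between them and both are uncertain. miR-3065-5p shared its seed with miR-7a-1-3p, and no other listed miRNA had a seed of these families. The strands of miR-219a therefore do not share a seed with each other, nor do those of miR-338.

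Pairs of members are made from opposite strands of the same DNA. In RefSeq the hairpins Mir338 and Mir3065 overlap over 66 bases on opposite strands, and Mir219-2 overlaps over 96 bases with Mir2964, the gene of miR-219b. As a result miR-3065-5p is complementary to miR-338-3p over a run of 20 bases, miR-3065-3p to miR-338-5p over 19 and miR-219b to miR-219a-2-3p over 20. The first hairpin below carries both strands of miR-338, and the other the strands miR-219a-5p and miR-219a-2-3p, in capitals.
Mir338: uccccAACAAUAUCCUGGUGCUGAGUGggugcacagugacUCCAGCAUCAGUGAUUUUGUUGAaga
Mir219-2: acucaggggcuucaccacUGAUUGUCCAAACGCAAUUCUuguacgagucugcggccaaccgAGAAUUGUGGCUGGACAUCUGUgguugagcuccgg

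Levels are given as miRNA counts scaled to a library total of 1000000 (CPM) after adjustment by TMM, the trimmed mean of M values. Each miRNA read stands for a whole short RNA, so no length scaling was used. The members spanned a wide range of levels. miR-338-5p ranked 34th and miR-204-5p 35th of 650 by mean CPM, and miR-338-3p ranked 56th. These 3 made up 97.0% to 98.8% of the members' counts in each library, and all members together held 0.883% to 1.07% of miRNA counts. miR-219a-2-3p (81.4 CPM on average), miR-204-3p (69.2 CPM) and miR-3065-3p (44.5 CPM) followed. miR-219a-1-3p (9.96 CPM), miR-211-5p (9.78 CPM) and miR-219b (5.25 CPM) were lower. miR-219a-5p and miR-3065-5p had at most 5 and 6 counts in any library.

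The filter on low counts kept 463 miRNAs, among them 9 of the 11 members. In the comparison of CCI-ION with sham, 1 of these 9 was called higher and none lower by edgeR at an adjusted p under 0.05. The called member was miR-219a-1-3p. Over all 463 tested miRNAs edgeR called 0.648%, with 0.216% higher and 0.432% lower. At an unadjusted p under 0.05 it had 1 of the 9 members, the same one, beside 9.94% of all tested miRNAs. DESeq2 and limma-voom likewise called 1 member higher and 0 lower, where they called 13 and 3 of all 463. The median log2 fold change of the 9 was -0.07, beside 0.01 over all tested miRNAs, and 5 of the 9 were negative.

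**Figure D1:**
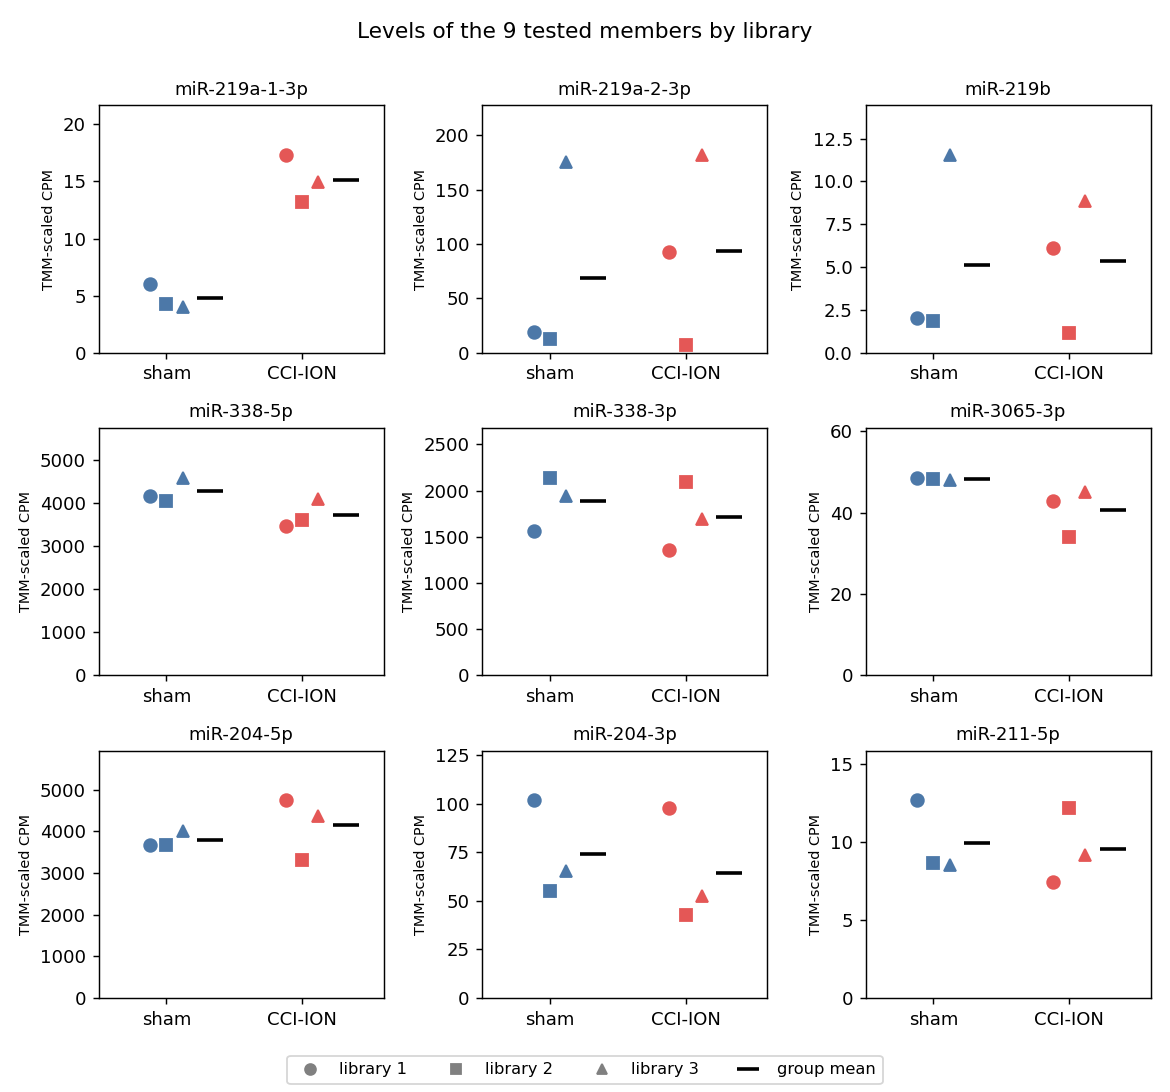
TMM-scaled CPM (linear axes from 0) of the 9 tested members in each library, with sham in blue, CCI-ION in red, the library number as the marker shape and the group mean as a black bar. For miR-219a-1-3p the CCI-ION libraries lie at 13.2 CPM or more and the sham libraries at 6.01 CPM or less, while miR-219a-2-3p and miR-219b vary most within each group.

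miR-219a-1-3p, the 3p strand of the hairpin Mir219a1, had 80, 42 and 40 counts in sham libraries 1 to 3, or 6.01, 4.27 and 4.02 CPM. In CCI-ION libraries 1 to 3 it had 201, 82 and 111 counts, or 17.3, 13.2 and 14.9 CPM. Every CCI-ION library was above every sham library. The ratio of the group means was 3.18, and the edgeR log2 fold change was 1.66 ± 0.24 (SE, n = 3 per group, adjusted p = 0.0239), with a 95% interval of 2.16 to 4.65 fold. Its direction was the same in 22 of 22 alternative settings (log2 fold change 1.33 to 1.87), with adjusted p from 1.13e-11 to 0.176. These settings reuse the same libraries, whose groups did not overlap, so the shared direction is no independent support. With group alone, the call was lost in edgeR without sham library 2 (adjusted p = 0.149) or 3 (0.168), without CCI-ION library 2 (0.0684) or 3 (0.176), and under upper quartile factors (0.0758).

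The other strand of that hairpin is miR-219a-5p, usually taken as the main product of the family. It was listed at 4, 0 and 5 counts in sham and at 1, 0 and 2 in CCI-ION, around the floor of 3 counts that a library with none allows (0.239 to 0.467 CPM before TMM scaling). No fold is given for it. Its sequence stands in 2 RefSeq hairpins, Mir219a1 and Mir219-2, and the other 10 members each stand in 1. Of the 30 listed miRNAs found in at least 2 hairpins, 18 exceeded 1000 counts in some library and 5, including miR-219a-5p, had at most 5 counts in every library. Of the 620 other listed miRNAs, 118 had at most 5 counts in every library. The counting of reads that match several hairpins, a step not given in the sources used here, was not tested for its part in the low count.

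The 3p strand of Mir219-2 varied mainly between libraries of the same group. miR-219a-2-3p stood at 18.6, 12.6 and 175.3 CPM in sham libraries 1 to 3 and at 92.9, 7.08 and 182 CPM in CCI-ION libraries 1 to 3. The highest library of each group was number 3 and the lowest number 2, and the groups overlapped over nearly their whole range. The highest library exceeded the lowest 25.7-fold. The SD of its log2 CPM within groups was 2.25, beside a median of 0.28 over all tested miRNAs, and it ranked 2nd of 463. Among the 224 tested miRNAs at least as abundant it ranked first.

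The group means of miR-219a-2-3p were 68.8 ± 92.2 CPM in sham and 94.0 ± 87.5 in CCI-ION (SD, n = 3 each). edgeR gave a log2 fold change of 0.45 ± 1.22 (adjusted p = 0.947), with a 95% interval of 0.188 to 9.98 fold, so a change as large as that of miR-219a-1-3p lay within its error. Leaving out sham library 3 moved the log2 fold change to 2.59 (adjusted p = 0.807), and leaving out CCI-ION library 3 moved it to -0.43 (0.994). Without CCI-ION library 2 it was 1.02 (0.75), and without sham library 1 or 2 it was near 0.

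miR-219b, made from the strand opposite miR-219a-2-3p, followed it from library to library. It had 27, 18 and 115 counts in sham (2.03, 1.83 and 11.5 CPM) and 71, 7 and 66 in CCI-ION (6.12, 1.13 and 8.88 CPM). In the CCI-ION group its order of libraries was that of miR-219a-2-3p, and in sham too. It ranked 5th of 463 by spread within groups (SD 1.45 in log2 CPM). The log2 fold change was 0.10 ± 0.87 (edgeR adjusted p = 0.993), with a 95% interval of 0.26 to 4.40 fold. Counts of miR-219b were 4.88% to 15.9% of those of miR-219a-2-3p, and the share was lowest in the 3 libraries with the most miR-219a-2-3p. That pair was chosen after its counts were seen, so no test is given.

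**Figure D2:**
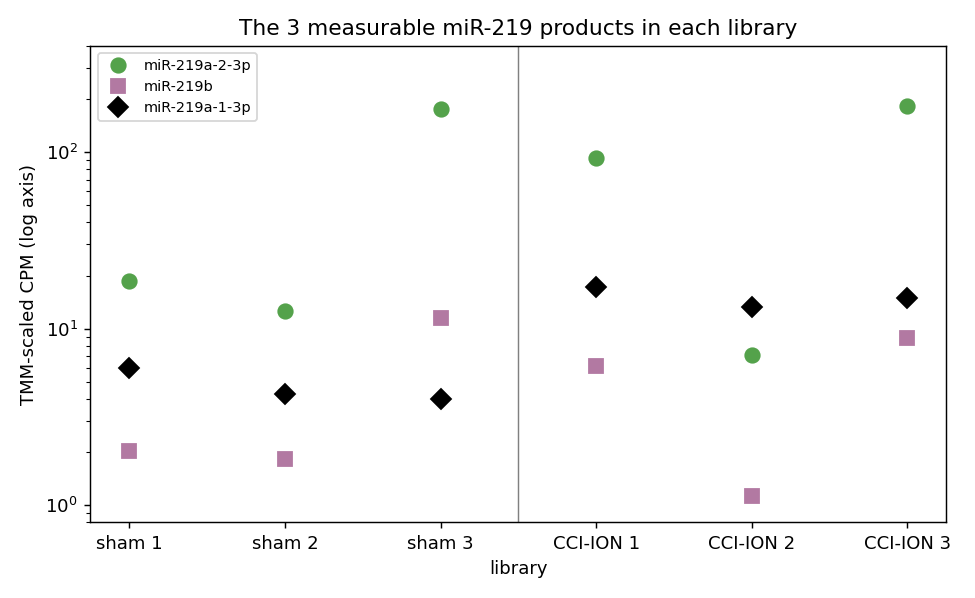
TMM-scaled CPM (log axis) of miR-219a-2-3p (green circles), miR-219b (purple squares) and miR-219a-1-3p (black diamonds) in each of the 6 libraries. miR-219a-2-3p and miR-219b are high in sham library 3 and in CCI-ION libraries 1 and 3, whereas miR-219a-1-3p is higher in each CCI-ION library than in each sham library.

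The 3p strands of the 2 copies of miR-219a were also compared within each library, where scaling plays no part. The ratio of miR-219a-1-3p to miR-219a-2-3p was 0.323, 0.339 and 0.0229 in sham libraries 1 to 3, against 0.186, 1.86 and 0.082 for CCI-ION libraries 1 to 3. CCI-ION library 2 was the library in which miR-219a-1-3p was the more frequent. The difference in mean log2 ratio was 1.16 (two-sided exact permutation p = 0.6, and 0.875 adjusted over 5 ratios). With 3 libraries per group the smallest p that this test can give is 0.1. Leaving out sham library 3 or CCI-ION library 2 turned the difference to -0.12 and -0.14.

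**Figure D3:**
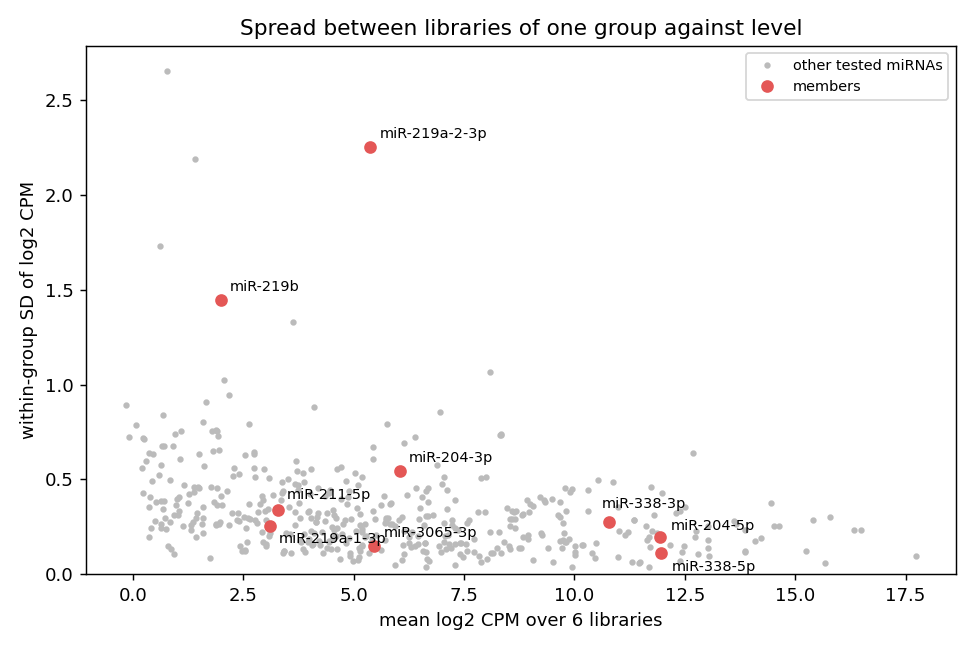
Within-group SD of log2 CPM against mean log2 CPM for the 463 tested miRNAs (grey) and the 9 tested members (red). miR-219a-2-3p (SD 2.25) and miR-219b (SD 1.45) stand above the other members, which lie between 0.11 and 0.54.

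miR-338-5p and miR-338-3p, the strands of the hairpin within Aatk, were abundant. miR-338-3p is also known from axons of sympathetic neurons, where it acts on a mitochondrial enzyme mRNA. miR-338-5p stood at 4166, 4042 and 4589 CPM in sham libraries 1 to 3 and at 3463, 3594 and 4094 CPM in CCI-ION libraries 1 to 3. It was lower in CCI-ION in 3 of 3 same-numbered pairs, and the groups overlapped by 1 CCI-ION library. The log2 fold change was -0.20 ± 0.13 (edgeR adjusted p = 0.776), and the 95% interval ran from 0.708 to 1.07 fold. Its within-group SD of 0.11 in log2 CPM was lower than that of all but 8.21% of the tested miRNAs.

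miR-338-3p stood at 1567, 2141 and 1947 CPM in sham and at 1354, 2094 and 1694 CPM in CCI-ION. Library 2 was the highest and library 1 the lowest in both groups, and its within-group SD of 0.28 in log2 CPM equalled the median of all tested miRNAs at 2 decimals. Its log2 fold change was -0.14 ± 0.20 (edgeR adjusted p = 0.936), with a 95% interval of 0.657 to 1.26 fold. It was lower in CCI-ION in 3 of 3 same-numbered pairs and was not called with the pairs as a block (adjusted p = 0.405). Without CCI-ION library 1 the log2 fold change was 0.01 (adjusted p = 0.999).

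The strand that is usually called the guide, miR-338-3p, was the less frequent in every library. Per read of miR-338-3p there were 2.66, 1.89 and 2.36 reads of miR-338-5p in sham libraries 1 to 3, against 2.56, 1.72 and 2.42 for CCI-ION libraries 1 to 3. Libraries with the same number lay closer to each other than to the other libraries of their own group. The mean log2 ratio differed by -0.05 between groups (two-sided exact permutation p = 0.7, adjusted p = 0.875).

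miR-3065-3p, from the strand opposite miR-338-5p, had 48.6, 48.1 and 48.0 CPM in sham and 42.8, 34.1 and 45.1 CPM in CCI-ION. The sham libraries were nearly equal, and each CCI-ION library was below them. The groups of miR-219a-1-3p and miR-3065-3p, 2 of the 9 tested members, did not overlap, as was the case for 13.8% of all tested miRNAs. The log2 fold change of miR-3065-3p was -0.25 ± 0.16 (edgeR adjusted p = 0.776, with the replicate block 0.279), with a 95% interval of 0.653 to 1.09 fold. Without CCI-ION library 2 it was -0.12 (adjusted p = 0.758). Its counts were 1.63% to 3.16% of those of miR-338-3p, and the log2 ratio of miR-338-3p to miR-3065-3p differed by 0.11 between groups (two-sided exact permutation p = 0.9, adjusted p = 0.9). miR-3065-5p had 2, 6 and 2 counts in sham and 0, 2 and 0 in CCI-ION, and was not tested.

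miR-204-5p, which in other tissues restrains transcription factors such as Sox4, was the second most abundant member. It stood at 3677, 3677 and 4000 CPM in sham libraries 1 to 3 and at 4748, 3318 and 4373 CPM in CCI-ION libraries 1 to 3. CCI-ION libraries 1 and 3 were above all sham libraries and CCI-ION library 2 below them. The log2 fold change was 0.13 ± 0.16 (edgeR adjusted p = 0.916), and the 95% interval ran from 0.846 to 1.42 fold. Without CCI-ION library 2 it was 0.28 (adjusted p = 0.442), and without CCI-ION library 1 it was 0.02 (0.982).

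Its partner strand miR-204-3p had 101.9, 55.0 and 65.7 CPM in sham and 97.7, 42.6 and 52.6 CPM in CCI-ION. Library 1 was the highest in both groups, and each CCI-ION library was below the sham library of the same number. The log2 fold change was -0.20 ± 0.36 (edgeR adjusted p = 0.946, with the replicate block 0.245), with a 95% interval of 0.485 to 1.56 fold. Leaving out sham library 1 gave 0.10 (adjusted p = 0.933), leaving out CCI-ION library 2 gave 0.03 (0.966), and leaving out CCI-ION library 1 gave -0.64 (0.428). Per read of miR-204-3p there were 36.1, 66.9 and 60.9 reads of miR-204-5p in sham and 48.6, 77.8 and 83.2 in CCI-ION. This ratio was higher in CCI-ION in 3 of 3 same-numbered pairs, and the groups overlapped (difference in mean log2 ratio 0.36, two-sided exact permutation p = 0.5, adjusted p = 0.875; 0.25 by sign flips within pairs, the smallest that 3 pairs allow).

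miR-211-5p, with the seed of miR-204-5p, had 12.7, 8.65 and 8.53 CPM in sham and 7.41, 12.2 and 9.15 CPM in CCI-ION. The ranges overlapped almost fully. The log2 fold change was -0.07 ± 0.27 (edgeR adjusted p = 0.98), with a 95% interval of 0.615 to 1.48 fold. Without sham library 1 it was 0.15 (adjusted p = 0.865), and without CCI-ION library 2 it was -0.26 (0.75). Its counts were 0.156% to 0.368% of those of miR-204-5p. How the counting treated reads with a mismatch at A17U is not stated, and its part in these low counts was not tested. The log2 ratio of miR-204-5p to miR-211-5p differed by 0.17 between groups (two-sided exact permutation p = 0.7, adjusted p = 0.875).

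**Figure D4:**
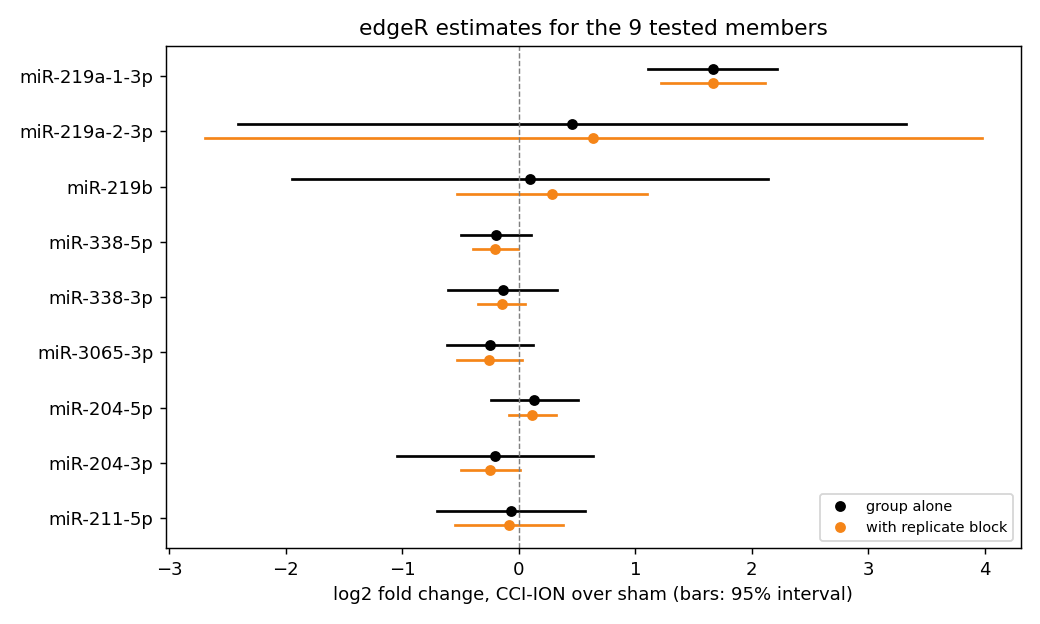
edgeR log2 fold changes (CCI-ION over sham, points) with 95% intervals (bars) for the 9 tested members, with group alone in black and with the replicate number as a block in orange. The interval of miR-219a-1-3p lies above 0 in both fits. With the block the interval of miR-338-5p ends just below 0, but its adjusted p was 0.213.

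With the replicate number as a block, edgeR again called 1 member higher, miR-219a-1-3p, and 0 lower, where it called 6.05% of the tested miRNAs higher and 5.62% lower. At an unadjusted p under 0.05 were 2 of 9 members, miR-219a-1-3p and miR-338-5p (unadjusted p 0.0429, adjusted p = 0.213), beside 21.4% of all tested. DESeq2 and limma-voom with the block also called 1 higher and 0 lower. Of all 463 tested miRNAs DESeq2 called 26 higher and 18 lower, and limma-voom 22 higher and 17 lower. On the scale of the totals behind the deposited RPM values the block called 4 members lower. They were miR-338-5p (log2 fold change -0.55, edgeR adjusted p = 0.00779), miR-338-3p (-0.49, 0.016), miR-3065-3p (-0.60, 0.00845) and miR-204-3p (-0.59, 0.00645). On that scale the median of all tested miRNAs was -0.35 and 32.8% of them were called lower and 1.3% higher. miR-219a-1-3p was called higher there as well (1.33, adjusted p = 5.30e-05).

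**Figure D5:**
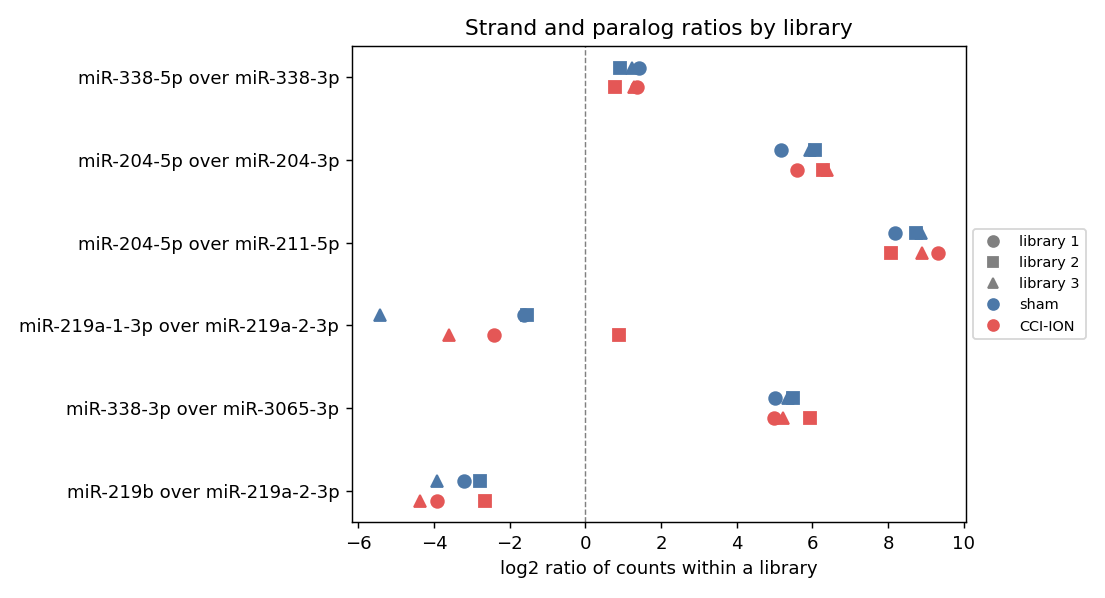
log2 ratio of the counts of pairs of members within each library, with sham in blue, CCI-ION in red and the library number as the marker shape. The ratio of miR-219a-1-3p to miR-219a-2-3p spreads most widely, from 0.0229 to 1.86 on the linear scale, and no ratio separates the groups.

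A list of 16 other miRNAs linked to Schwann cells or oligodendrocytes was examined beside the members. It includes miR-9a-5p and miR-182, which are also listed as neuronal. With group alone edgeR called 0 of 16, as did DESeq2 and limma-voom, while 2 had an unadjusted p under 0.05 in edgeR. Of all tested miRNAs edgeR then called 0.648%, and 9.94% had an unadjusted p under 0.05. With the replicate block, edgeR called 2 higher and 2 lower, 4 of 16, where it called 11.7% of all tested miRNAs. miR-21-5p, which many injuries induce, stood at 3077 ± 555 CPM in sham against 5727 ± 2099 CPM after injury (SD, n = 3 each; blocked log2 fold change 0.84, edgeR adjusted p = 5.63e-08). miR-221-3p, linked to Schwann cell proliferation, averaged 269.2 ± 20.2 and 372.9 ± 72.4 CPM (0.45, adjusted p = 0.00231). miR-34a-5p, which p53 induces, averaged 482.9 ± 81.5 and 340.2 ± 88.9 CPM (-0.52, adjusted p = 0.000204), and miR-138-5p 998.5 ± 108.4 and 808.2 ± 104 CPM (-0.31, adjusted p = 0.039). For each of these 4 miRNAs the groups overlapped. With group alone their edgeR adjusted p ran from 0.316 (miR-21-5p) to 0.601 (miR-138-5p), so the calls rest on taking the numbers as pairs. The most abundant were miR-27b-3p (60497 ± 12337 and 54171 ± 11883 CPM) and miR-182 (22975 ± 3595 and 24521 ± 4586 CPM), neither of them called. Without the libraries numbered 1, 2 or 3 the blocked fit called 3, 2 and 0 of the 16 (5, 6 and 3 at an unadjusted p under 0.05). Over all tested miRNAs those fits called 45 of 453, 31 of 464 and 5 of 466. DESeq2 with the block called 4 of the 16 (2 higher, 2 lower), beside 44 of all 463. With the block limma-voom called 2, beside 39 of 463. The median log2 fold change of the list was -0.09, beside 0.01 over all tested.

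Markers of the other cells in the tissue were summed per library. Sensory neuron miRNAs (4 of 4 detected, led by miR-182) summed to 35139 to 44701 CPM in sham and 34705 to 45642 in CCI-ION, so the defining markers of the labelled tissue were present in each library. Leukocyte miRNAs (5 of 5, led by miR-150-5p) were the list whose sums did not overlap, at 222.3 to 266.2 CPM in sham and 284.2 to 331 in CCI-ION. These sums therefore moved with the groups, as miR-219a-1-3p did. Within the list only miR-142-3p had groups that did not overlap (43.8 and 71.5 CPM on average). Those of miR-142-5p, miR-223-3p, miR-150-5p and miR-155-5p overlapped. The leading miR-150-5p averaged 162.9 CPM in sham and 185.7 CPM in CCI-ION (edgeR with group alone, adjusted p = 0.872). The part of leukocytes in the result for miR-219a-1-3p was not tested. In the neuron list the groups did not overlap for miR-124-3p (251.0 and 180.0 CPM on average), miR-124-5p (28.4 and 20.2) and miR-128-3p (4340 and 3332). Its other rows overlapped, among them its leading row miR-9a-5p. Skeletal muscle miR-133a-3p (76.8 and 49.5 CPM) and epithelial miR-205 (56.6 and 88.3 CPM) did not overlap either. The groups of all other listed markers overlapped, and 13.8% of all tested miRNAs did not. Neuron sums were 16128 to 19678 and 13473 to 17634 CPM, endothelial 10372 to 14747 and 10952 to 15329, and fibroblast and mural 25082 to 34868 and 26059 to 42435. Erythroid sums were 285.4 to 770.6 and 407.5 to 798.9 CPM, skeletal muscle 175.8 to 250.1 and 111.6 to 206.1, and epithelial 193.6 to 257.3 and 216.9 to 320.3. The skeletal muscle list did not hold miR-1b or miR-499-5p (mean log2 CPM 12.7 and 8.93), so its sum depends on the rows listed. No marker was at 0 in all libraries. Of 38 tested markers edgeR with group alone called 0 (6 at an unadjusted p under 0.05, 2 called by DESeq2 and 0 by limma-voom), beside 0.648% of all tested miRNAs (9.94% unadjusted, and 13 of 463 and 3 of 463 called by DESeq2 and limma-voom). With the block it called 4 higher (2 leukocyte, 1 fibroblast and mural, 1 epithelial) and 4 lower (3 neuron, 1 skeletal muscle), 8 of 38 beside 11.7% of all tested. Without the libraries numbered 1, 2 or 3 the block called 8, 3 and 0 of these markers (13, 16 and 8 at an unadjusted p under 0.05), beside 45 of 453, 31 of 464 and 5 of 466 of all tested.

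The miRNAs whose pattern over the 6 libraries was most like that of each member were found by the root mean square difference of centred log2 CPM among 462 others. For miR-219a-1-3p they were miR-3072 (0.37), miR-412-3p (0.39) and miR-1188-5p (0.44), where miR-219a-1-3p itself deviated by 0.85. miR-3072 had 7.51, 3.66 and 4.92 CPM in sham and 13.6, 9.65 and 9.15 CPM in CCI-ION. For miR-219a-2-3p (own deviation 1.86) the nearest was miR-219b (0.69), followed at a larger distance by miR-666-5p (1.52) and miR-483-5p (1.55). For miR-219b (own deviation 1.19) they were miR-219a-2-3p (0.69), miR-483-5p (0.92) and miR-3084a-1-5p (0.93).

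The difference can be no guide to closeness between members, since it shrinks with a member's own deviation. That deviation was 0.24 for miR-338-3p, 0.14 for miR-338-5p, 0.18 for miR-3065-3p, 0.17 for miR-204-5p, 0.46 for miR-204-3p and 0.28 for miR-211-5p. For miR-338-3p the nearest were miR-137-3p (0.02), miR-3559-5p (0.07) and miR-17-2-3p (0.07), and for miR-338-5p miR-24-1-5p (0.08), miR-30e-3p (0.08) and miR-325-5p (0.09). miR-137-3p, a neuronal miRNA, stood at 50.1, 66.4 and 62.6 CPM in sham and 42.9, 66.1 and 53.1 CPM in CCI-ION. For miR-3065-3p they were miR-134-3p (0.05), let-7e-3p (0.07) and miR-30a-3p (0.09). For miR-204-5p they were miR-27b-5p (0.03), miR-369-5p (0.07) and miR-150-5p (0.07), for miR-204-3p miR-490-3p (0.10), miR-485-5p (0.13) and miR-330-5p (0.15), and for miR-211-5p miR-450a-5p (0.15), miR-106b-5p (0.16) and miR-466c-5p (0.18). No strand of miR-338 or miR-204 had its partner strand among its 3 nearest miRNAs.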

How the data were processed

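The authors deposited raw counts for 650 mature miRNAs in 6 libraries and, per library, RPM values that equal those counts times 1 constant. Multiplying back gave whole reads for 100% of RPM values (tolerance 0.01 read). The totals behind the RPM exceed the miRNA counts, and what they count is not stated. Counts of miRNAs were 52.3% to 66.6% of these totals in sham and 45.4% to 55.8% in CCI-ION. Per the submitters' processing notes the tools were cutadapt 1.14 and Bowtie 1.1.1 on rn6. Read counter and annotation: not given in the sources used here.

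Counts were tested with the edgeR 4.0.16 quasi-likelihood test (robust, TMM, filterByExpr, two-sided, Benjamini-Hochberg over 463 miRNAs, threshold 0.05) in R 4.3.3, with group alone. SE is the log2 fold change divided by the root of F. edgeR shares variance across miRNAs, with a weight (median prior degrees of freedom) of 3.30 with group alone and 54.5 with the block. Its very small blocked p-values therefore rest mainly on that shared variance, not on the few libraries of each miRNA. DESeq2 1.42.0 and limma-voom (limma 3.58.1) were alternatives. The edgeR procedure was also run on simulated counts, drawn independently for each library with no effect shared by same-numbered libraries. That run therefore cannot show how the block behaves on these data. Ratios used 0.5 added counts, at least 5 counts in each library and exact permutation over libraries. Planned ratios with miR-219a-5p or miR-3065-5p fell below that count, and miR-211-3p was not analysed here. Floors are 3 counts and cover counting error only.

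Same-numbered libraries deviated together (correlations 0.664, 0.591 and 0.457). The replicate block took the numbers as pairs, as an alternative to the main tests, which used group alone. These correlations come from the same counts and are no independent support for the blocked calls. What a number stands for is not given. Every within-group pair of libraries differed beyond sampling noise. Every member was named, with the 3 nearest miRNAs, the called and 2 most abundant members of the glia-linked list and the leading marker of lists a result turns on. Members and lists were chosen with earlier results of these data known. No sample column was left unused.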

Additional observations from a re-analysis of the deposited data

How the results depend on the processing

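Over all miRNAs edgeR called 3 with group alone, 54 with the replicate block, and 60 and 158 when the block went with upper quartile factors and with totals behind the RPM. DESeq2 called 13 (44 with the block), limma-voom with the block 39, and edgeR with totals behind the RPM or no low-count filter 6 each. Leaving out 1 library gave 1 to 7 calls, leaving out a pair with the block 45, 31 and 5 (numbers 1 to 3), and group alone without both libraries numbered 1 gave 12 (chosen after seeing the data). The number of members called higher was 0 or 1 on leaving out 1 library and 0 under upper quartile factors. Members called lower were 0 in each setting except totals behind the RPM with the block (4). On the TMM scale the replicate block changed no member's call.

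Uncalled members changed sign in some settings, and the cause was not tested. Under totals behind the RPM, miR-204-5p was -0.21 (-0.23 with the block) and miR-219b -0.25 (-0.022). Under upper quartile factors with the block miR-211-5p was 0.0051. Leaving out 1 library gave -0.64 to 0.10 for miR-204-3p, 0.02 to 0.28 for miR-204-5p, -0.26 to 0.15 for miR-211-5p, -0.43 to 2.59 for miR-219a-2-3p, -0.41 to 1.48 for miR-219b and -0.29 to 0.0052 for miR-338-3p. Leaving out both libraries numbered 1 gave, with the block, -0.012 for miR-204-5p, 0.30 for miR-211-5p, -0.24 for miR-219a-2-3p and -0.44 for miR-219b, and with group alone 0.31 for miR-211-5p and -0.38 for miR-219b.

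Ratio differences without 1 library ranged from -0.19 to 0.13 (miR-338-5p over miR-338-3p), 0.09 to 0.61 (miR-204-5p over miR-204-3p), -0.10 to 0.52 (miR-204-5p over miR-211-5p), -0.14 to 2.10 (miR-219a-1-3p over miR-219a-2-3p) and -0.17 to 0.31 (miR-338-3p over miR-3065-3p). Within same-numbered pairs (replicate block) they were -0.05, 0.36, 0.17, 1.16 and 0.11, with 0.25 the smallest p that sign flips can give.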
